A study of Mus musculus with 32 samples.

Results

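The 10 coinhibitory receptor genes Ctla4, Pdcd1, Lag3, Tigit, Havcr2, Cd160, Btla, Vsir, Cd200 and Cd96 were examined in CD4 T cells of the mouse liver and spleen. They were given as a list of names, drawn up with earlier results of these data known, and are 10 of the 36047 genes that had a transcript in the deposited tables. All 10 were among the 17174 genes that passed the filter on low counts and were tested. RNA was sequenced in bulk from sorted cells of male Foxp3GFP mice on the C57BL/6 background, in which GFP reports Foxp3, the lineage factor of regulatory T cells. Regulatory T cells (Treg) were gated as TCRb+CD4+Foxp3+ and conventional T cells (Tconv) as TCRb+CD4+Foxp3-. There were 8 groups of libraries: liver Treg, liver Tconv, spleen Treg and spleen Tconv, each from mice given carbon tetrachloride (CCl4, a hepatotoxin) with 5 libraries and from control mice with 3. The labels used here give no ages, no dose of CCl4 and no time after it. Whether each library is a separate animal is not stated in the labels, and p-values therefore measure the spread between these samples, which may be technical.

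The libraries held between 24513124 and 75292019 estimated counts, and a floor of 3 counts was between 0.0401 and 0.123 CPM in a library, where CPM are counts scaled to the library's total. Foxp3 ranged from 909 to 1176 CPM over the Treg libraries and from 0.681 to 3.43 CPM over the Tconv libraries, and Cd4 was at 495 CPM or more in all 32. The summed level of the 7 defining CD4 T cell markers ranged from 4850 to 5575 CPM in liver Treg and from 6278 to 7437 CPM in liver Tconv. It ranged from 6989 to 7954 CPM in spleen Treg and from 8199 to 9302 CPM in spleen Tconv. Libraries that stood apart were controls 2 and 3 of both spleen populations, with low Fos (spleen Treg controls ranged from 22.6 to 842 CPM), and the CCl4 libraries numbered 4 of both spleen populations. The 7 B cell markers summed to 1791 to 3128 CPM over the Treg libraries and to 283 to 999 CPM over the Tconv libraries. Most of this was Ighm, and of the others Cd79b reached 29.2 CPM in spleen Treg and Cd22 18.9 CPM. The 7 NK markers summed to 0.319 to 4.55 CPM in liver Treg, with Ncr1 and Klra8 at 0 in every library, and to 15.7 to 52.3 CPM in liver Tconv, with the highest sum in CCl4 library 5. The RNA is from whole sorted populations, so fewer cells that express a gene and less RNA per cell cannot be told apart.

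Coinhibitory receptors restrain T cell activation by competing with costimulatory receptors for shared ligands or by recruiting phosphatases to the antigen receptor complex. CTLA-4, which Treg carry constitutively, binds CD80 and CD86 more tightly than CD28 does and strips them from antigen-presenting cells. PD-1, LAG-3, TIM-3 and TIGIT are induced by antigen receptor signalling and are known from exhausted T cells as well as from tissue and effector Treg, whereas BTLA, CD160 and VISTA are found on resting T cells too.

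The start-site regions of 5 of these genes are shown because the results turn on them: Ctla4 and Tigit as those with the largest Treg excess in spleen, and Pdcd1, Cd96 and Btla as those with the largest called changes after CCl4. Each sequence is 300 bases, from 250 before to 50 after a RefSeq start, read 5′ to 3′ on the coding strand from RefSeq on the build GRCm38.p6. For Ctla4 that start is the start of its coding transcript Ctla4-201, which lies inside the GENCODE span of the gene because a non-coding transcript begins upstream. Capitals mark matches on either strand to 6 short motifs: the NFAT core GGAAA, the AP-1 site TGANTCA, the forkhead core TAAACA, the TCF/LEF core CTTTGA, the RUNX core TGTGGT and the GATA core AGATAA. The regions are Ctla4 at chr1:60908775-60909074 on the plus strand, Pdcd1 at chr1:94052504-94052803 on the minus strand, Tigit at chr16:43664135-43664434 on the minus strand, Cd96 at chr16:46120199-46120498 on the minus strand and Btla at chr16:45224087-45224386 on the plus strand.
Ctla4: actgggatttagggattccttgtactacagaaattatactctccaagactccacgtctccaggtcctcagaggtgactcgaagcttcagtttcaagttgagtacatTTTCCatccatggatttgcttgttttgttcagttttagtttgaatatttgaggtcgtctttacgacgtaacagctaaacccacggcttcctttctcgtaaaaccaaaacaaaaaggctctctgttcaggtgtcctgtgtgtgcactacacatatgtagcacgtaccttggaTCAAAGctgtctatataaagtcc
Pdcd1: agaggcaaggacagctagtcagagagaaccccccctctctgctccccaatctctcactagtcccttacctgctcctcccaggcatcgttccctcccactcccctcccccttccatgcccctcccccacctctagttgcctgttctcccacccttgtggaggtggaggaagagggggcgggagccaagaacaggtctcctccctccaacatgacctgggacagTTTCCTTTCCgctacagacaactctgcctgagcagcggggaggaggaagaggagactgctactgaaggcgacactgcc
Tigit: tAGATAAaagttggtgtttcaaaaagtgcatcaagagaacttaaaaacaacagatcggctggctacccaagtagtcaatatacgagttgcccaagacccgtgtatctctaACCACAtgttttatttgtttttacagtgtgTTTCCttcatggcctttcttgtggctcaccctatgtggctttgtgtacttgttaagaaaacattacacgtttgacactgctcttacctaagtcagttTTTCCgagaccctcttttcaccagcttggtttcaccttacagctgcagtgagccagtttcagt
Cd96: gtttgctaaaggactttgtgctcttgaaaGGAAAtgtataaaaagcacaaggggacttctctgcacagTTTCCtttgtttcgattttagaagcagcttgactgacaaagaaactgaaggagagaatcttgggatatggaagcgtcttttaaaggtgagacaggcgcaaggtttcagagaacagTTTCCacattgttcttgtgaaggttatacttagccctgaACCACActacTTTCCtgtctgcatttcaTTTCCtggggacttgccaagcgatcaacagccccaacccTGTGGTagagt
Btla: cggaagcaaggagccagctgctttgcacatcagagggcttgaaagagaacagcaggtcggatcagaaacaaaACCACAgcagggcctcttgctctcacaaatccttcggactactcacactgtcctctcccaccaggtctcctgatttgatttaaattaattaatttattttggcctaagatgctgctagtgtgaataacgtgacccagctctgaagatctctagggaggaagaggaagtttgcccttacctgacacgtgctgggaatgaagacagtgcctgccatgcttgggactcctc

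Pdcd1 held 2 adjoining NFAT matches, Cd96 held 5 NFAT and 2 RUNX matches, Tigit 2 NFAT, 1 RUNX and 1 GATA match, Ctla4 1 NFAT and 1 TCF/LEF match, and Btla 1 RUNX match. Among 32851 promoter windows of the same length, 61.3% hold the NFAT core, 16.8% the RUNX core, 13.4% the forkhead core, 11.2% the GATA core and 7.81% the AP-1 site, while the TCF/LEF core is in 5257 of them. A match describes the letters of the window and nothing more. The table held such windows for 9 of the 10 genes. On GRCm38 4 of the genes lie within 2.47 Mb of chromosome 16: Tigit at chr16:43648867-43664146, Btla at chr16:45224315-45257670, Cd200 at chr16:45382135-45409053 and Cd96 at chr16:46035657-46120251. Ctla4 (chr1:60887000-60915832) and Pdcd1 (chr1:94038305-94052553) share chromosome 1. The other 4 are Lag3 (chr6:124904361-124911705), Havcr2 (chr11:46454935-46481255), Cd160 (chr3:96798763-96829351) and Vsir (chr10:60346851-60372684).

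Levels were first set side by side as TPM, the transcript abundance per length scaled to the library, which can be compared between genes. The 10 genes summed to 3793 ± 171 TPM in CCl4 and 3071 ± 69.1 TPM in control liver Treg (mean ± SD, n = 5 and 3 here and in all groups). The sums were 1058 ± 142 and 885 ± 109 TPM in CCl4 and control liver Tconv, 1535 ± 137 and 1319 ± 40.3 TPM in CCl4 and control spleen Treg, and 709 ± 82.1 and 621 ± 7.57 TPM in CCl4 and control spleen Tconv. The composition differed with the cell type. Ctla4 supplied 60.7% of the sum in CCl4 and 66.3% in control liver Treg but 4.44% and 3.00% in spleen Tconv, where Vsir (39.0% and 39.4%) and Cd96 (25.7% and 27.2%) supplied most.

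**Figure D1:**
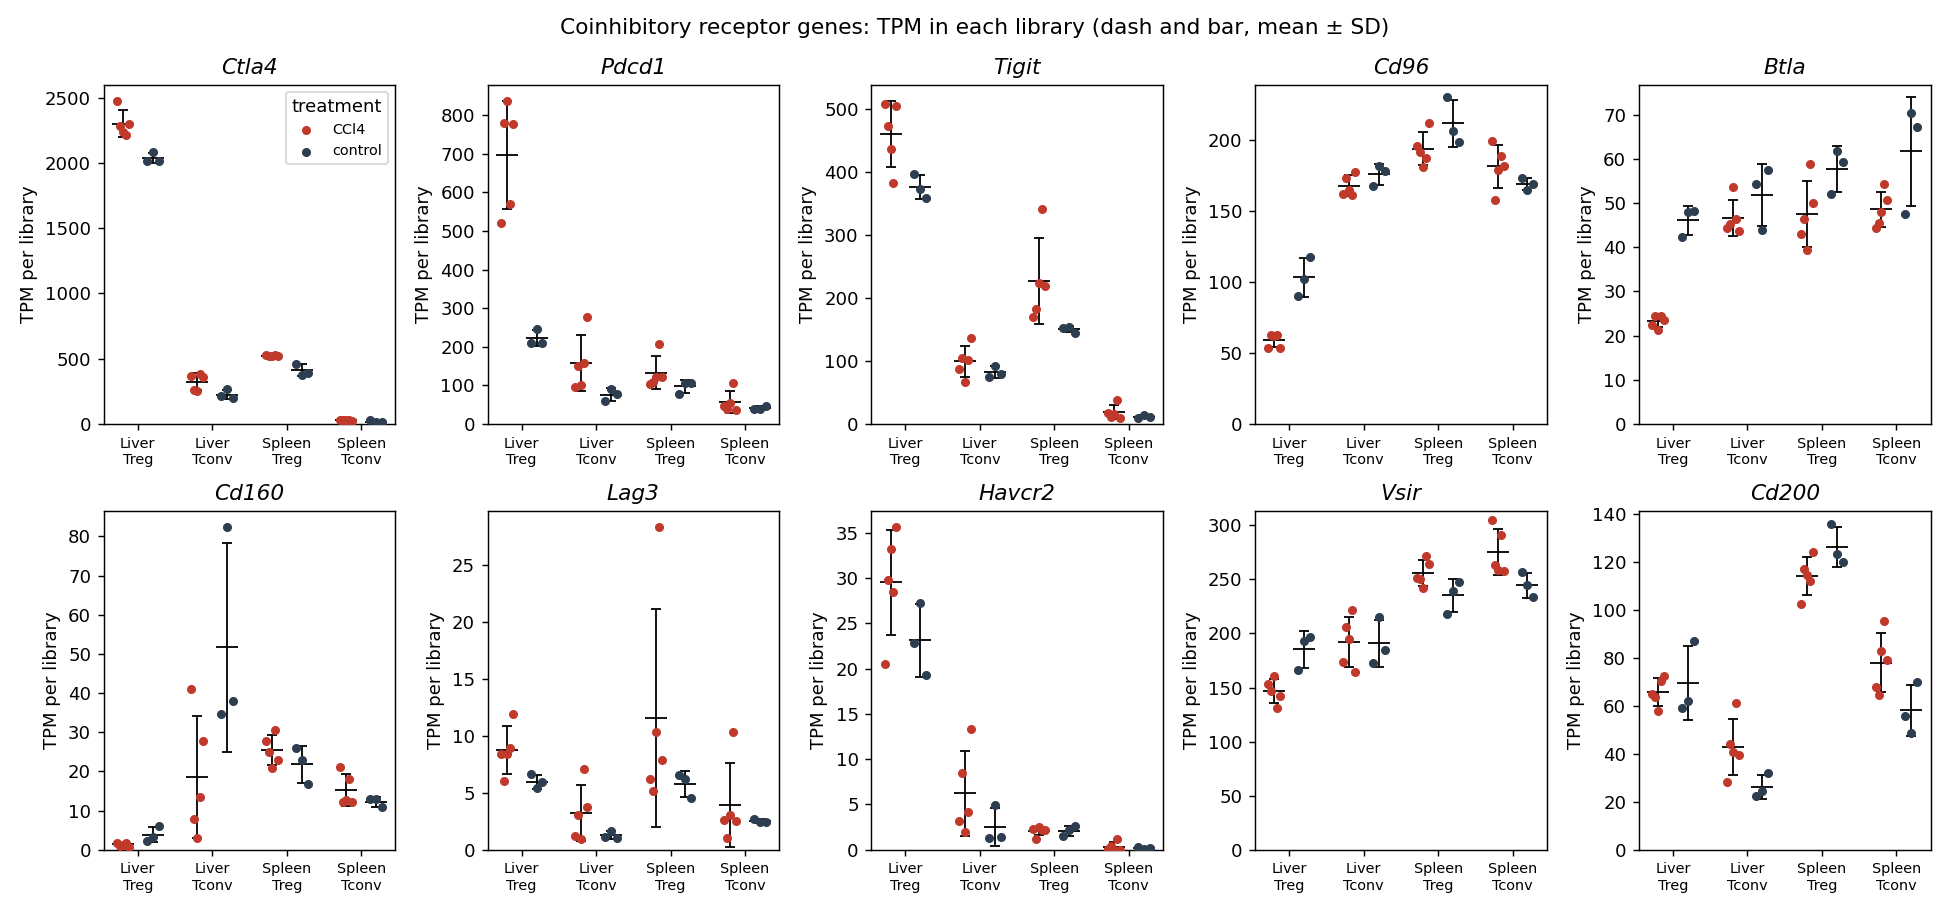
TPM of each of the 10 genes in every library (points), by population and treatment, with the mean and SD of each group (dash and bar). CCl4 libraries are red and control libraries dark blue; each panel has its own linear axis from 0. By group mean, Ctla4, Pdcd1, Tigit and Havcr2 were highest in liver Treg, and Cd96, Btla, Cd160 and Vsir lowest there.

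Ctla4, Pdcd1, Tigit and Havcr2 had their highest levels in liver Treg. Ctla4 averaged 2301 ± 103 TPM in CCl4 and 2036 ± 40.0 TPM in control liver Treg, followed by spleen Treg (525 ± 4.79 in CCl4, 410 ± 46.2 in control), liver Tconv (324 ± 63.2 in CCl4, 226 ± 37.4 in control) and spleen Tconv (31.3 ± 4.54 in CCl4, 18.7 ± 8.14 in control). The highest group was 123-fold above the lowest. In this order the ranges of neighbouring groups overlapped between control spleen Treg and CCl4 liver Tconv, within liver Tconv and within spleen Tconv, and were apart elsewhere. Pdcd1, the gene of PD-1, stood at 697 ± 141 TPM in CCl4 liver Treg, apart from all other groups, and at 223 ± 21.3 TPM in control liver Treg. Its other levels were 157 ± 72.5 and 76.4 ± 16.4 TPM in CCl4 and control liver Tconv, 133 ± 43.0 and 97.3 ± 16.2 in CCl4 and control spleen Treg, and 56.7 ± 28.0 and 42.2 ± 4.07 in CCl4 and control spleen Tconv, and each of these groups overlapped the next in the order.

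Tigit, whose product competes with CD226 for CD155, averaged 460 ± 52.3 and 376 ± 18.8 TPM in CCl4 and control liver Treg. It reached 227 ± 68.1 TPM in CCl4 and 151 ± 5.06 in control spleen Treg, 99.4 ± 25.1 in CCl4 and 82.1 ± 9.52 in control liver Tconv, and 18.6 ± 11.1 in CCl4 and 11.9 ± 2.84 in control spleen Tconv. Havcr2, the gene of TIM-3, was a low-level transcript outside liver Treg. It averaged 29.5 ± 5.76 and 23.1 ± 4.00 TPM in CCl4 and control liver Treg, 6.24 ± 4.68 in CCl4 and 2.54 ± 2.07 in control liver Tconv, 2.08 ± 0.486 in CCl4 and 2.07 ± 0.560 in control spleen Treg, and 0.344 ± 0.521 in CCl4 and 0.180 ± 0.140 in control spleen Tconv. In spleen Tconv it lay near the floor, with 0 counts in CCl4 library 5, where 3 counts would be 0.0754 CPM.

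Cd96 and Btla were lowest in liver Treg, with the CCl4 libraries at the bottom of the order. Cd96, another receptor for CD155, averaged 58.9 ± 4.75 TPM in CCl4 and 103 ± 13.8 TPM in control liver Treg, and between 168 ± 7.33 (CCl4 liver Tconv) and 212 ± 16.3 TPM (control spleen Treg) in the other 6 groups, which overlapped from neighbour to neighbour. Btla, a receptor for HVEM, averaged 23.3 ± 1.38 TPM in CCl4 liver Treg, apart from every other group, while the other 7 groups ran from 46.1 ± 3.30 (control liver Treg) to 61.7 ± 12.4 TPM (control spleen Tconv) and overlapped. Cd160, which shares HVEM with BTLA, averaged 1.36 ± 0.475 and 3.88 ± 1.99 TPM in CCl4 and control liver Treg. It was highest in control liver Tconv, at 18.6 ± 15.6 TPM in CCl4 and 51.7 ± 26.7 TPM in control liver Tconv, the groups with the largest SD, with 25.4 ± 3.86 in CCl4 and 21.9 ± 4.72 in control spleen Treg, and 15.2 ± 4.15 in CCl4 and 12.3 ± 1.28 in control spleen Tconv.

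Vsir, the gene of VISTA, was the most even of the 10. It averaged 147 ± 11.1 and 185 ± 16.9 TPM in CCl4 and control liver Treg, 192 ± 23.4 in CCl4 and 191 ± 21.7 in control liver Tconv, 256 ± 11.8 in CCl4 and 235 ± 15.2 in control spleen Treg, and 275 ± 21.4 in CCl4 and 245 ± 11.6 in control spleen Tconv. Lag3, an inhibitory receptor for MHC class II, was low in all groups, from 11.6 ± 9.57 TPM in CCl4 spleen Treg to 1.30 ± 0.332 TPM in control liver Tconv, and 6 of its 7 neighbouring pairs overlapped. Cd200 encodes a ligand rather than a receptor, which restrains cells that carry CD200R1. It averaged 114 ± 7.93 and 126 ± 8.33 TPM in CCl4 and control spleen Treg, 77.9 ± 12.2 in CCl4 and 58.1 ± 10.7 in control spleen Tconv, 65.8 ± 5.73 in CCl4 and 69.4 ± 15.4 in control liver Treg, and 42.8 ± 11.8 in CCl4 and 26.3 ± 5.01 in control liver Tconv.

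For tests, counts were normalised per library as CPM and compared with edgeR's quasi-likelihood test across all 17174 genes. Values are given in the order of the sample numbers, and calls were made where the adjusted p was below 0.05. In liver Treg CCl4 moved 4 of the 10 genes: Pdcd1 rose, and Cd96, Btla and Vsir fell. That is 1 gene higher and 3 lower, against 14.9% of all genes called in this comparison (7.58% higher and 7.34% lower). Pdcd1 stood at 579, 880, 930, 646 and 864 CPM in CCl4 liver Treg and at 245, 284 and 226 CPM in control liver Treg. Every CCl4 library lay above every control, and the change was 3.10-fold (1.63 on the log2 scale, SE 0.30, adjusted p = 2.84e-04).

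Cd96 stood at 68.3, 81.6, 79.1, 81.3 and 69.0 CPM in CCl4 and at 121, 137 and 146 CPM in control liver Treg. It fell 1.77-fold (-0.83 on the log2 scale, SE 0.09, adjusted p = 5.23e-08). Btla, at 39.2, 42.0, 36.4, 43.1 and 38.7 CPM in CCl4 against 74.0, 77.5 and 76.9 CPM in control libraries, fell 1.91-fold (-0.93, SE 0.11, adjusted p = 7.88e-07). For both genes all 5 CCl4 libraries lay below the lowest control. The fall of Vsir was smaller, with 233, 239.5, 254, 238 and 229 CPM in CCl4 against 287, 340.2 and 305 CPM in control libraries (-0.38, SE 0.08, adjusted p = 0.00225). These 4 calls held under all 18 other settings tried, with log2 fold changes of 1.45 to 1.73 for Pdcd1, -0.90 to -0.77 for Cd96, -0.98 to -0.90 for Btla and -0.43 to -0.31 for Vsir.

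The other 6 genes were not called in liver Treg. Ctla4 stood at 2715, 2547, 2444, 2474 and 2507 CPM in CCl4 and at 2288, 2339 and 2137 CPM in control libraries, a difference of 0.17 on the log2 scale (SE 0.17, adjusted p = 0.574). Tigit stood at 234, 204, 197, 174 and 220 CPM in CCl4 and at 166, 148 and 152 CPM in control libraries (0.41, SE 0.24, adjusted p = 0.289). Lag3 was at 9.74, 7.09, 9.71, 10.6 and 13.8 CPM in CCl4 and at 6.80, 6.46 and 6.26 CPM in control libraries (0.64, SE 0.56, adjusted p = 0.518). For these 3 the libraries did not overlap either, so 7 of the 10 genes were apart, where 19.1% of all genes were. The fit takes each gene's spread from all 8 groups, and Tigit was called (adjusted p = 0.0247) when liver Treg libraries were fitted alone. Cd160, at 1.52, 0.591, 0.852, 1.27 and 0.474 CPM in CCl4 and 1.32, 2.00 and 4.17 CPM in control libraries, overlapped and was not called (-1.36, SE 0.52, adjusted p = 0.0770), though DESeq2 called it (adjusted p = 0.0382). Havcr2 (33.3 to 58.5 CPM in CCl4, 30.7 to 47.3 CPM in control) and Cd200 (42.5 to 52.6 CPM in CCl4, 41.3 to 59.2 CPM in control) overlapped between treatments. The median log2 fold change of the 10 was 0.03, against -0.000588 over all genes tested.

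Genes on the marker lists moved in liver Treg too. Of 7 follicular helper markers, Slamf6 and Sh2d1a fell and Tox2 rose, and their summed level was 405 to 485 CPM in CCl4 against 616 to 665 CPM in control libraries. That list summed to 405 CPM or more in every library of every group, so it does not mark other cells alone. Tox2 and Sh2d1a are also followed below among the genes around the receptors. Of 8 endothelial and stellate markers, Pecam1 and Stab2 fell and Col1a2 rose, with a summed level of 103 to 170 CPM in CCl4 against 201 to 217 CPM in control libraries, most of it Pecam1, which T cells also express. The 11 myeloid markers, 1 of them called lower, summed to 21.6 to 52.2 CPM in CCl4 and 28.8 to 60.9 CPM in control libraries. The 7 dendritic cell markers, 1 called higher and 1 lower, summed to 21.4 to 43.1 CPM in CCl4 and 18.7 to 25.0 CPM in control libraries, and of the 7 NKT-like markers Xcl1 was called higher, at 0.653 CPM in CCl4 and 0.0739 CPM in control libraries. The part of these markers in the changes of the receptors was not tested.

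**Figure D2:**
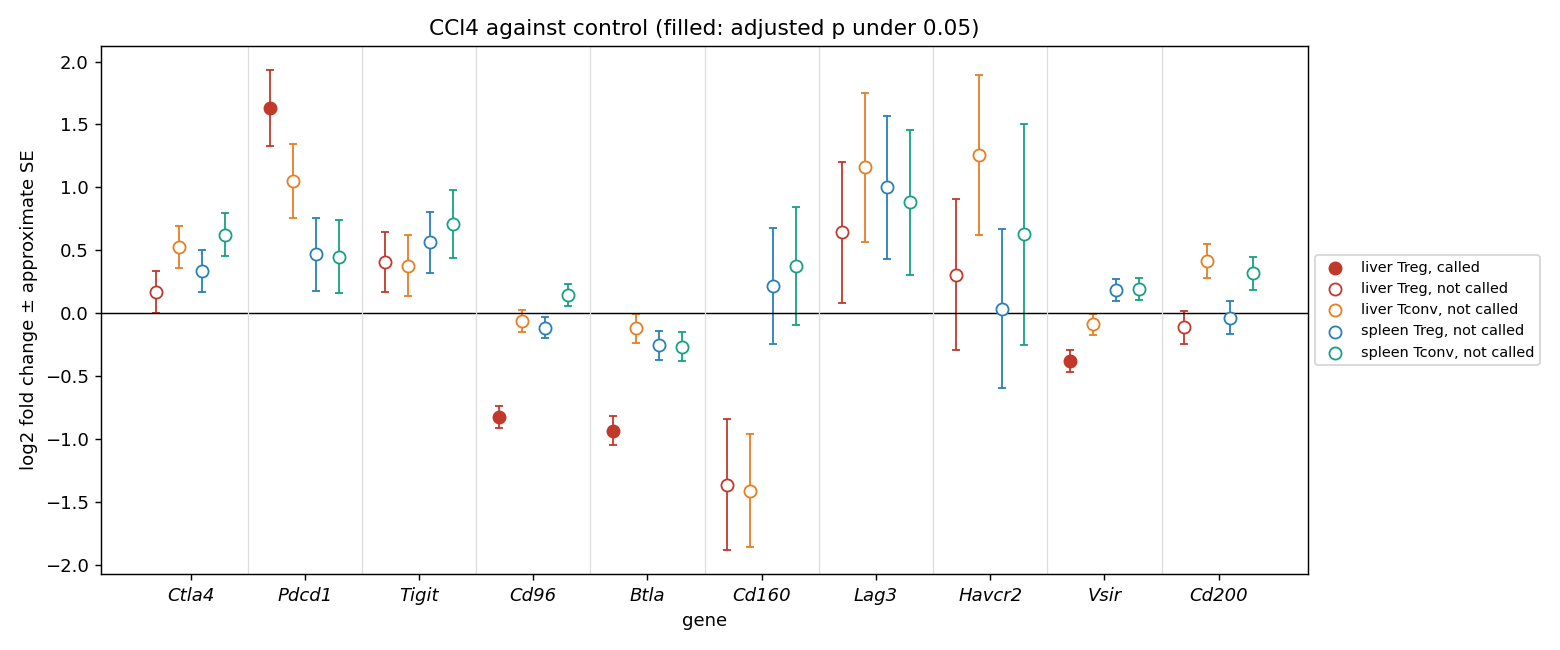
Log2 fold change of each gene with CCl4 against control, in liver Treg, liver Tconv, spleen Treg and spleen Tconv (left to right within a gene), with approximate standard errors. Filled points had an adjusted p under 0.05 in edgeR's test over all genes: Pdcd1 (1.63), Cd96 (-0.83), Btla (-0.93) and Vsir (-0.38), all in liver Treg.

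In liver Tconv edgeR called 0 of the 10 genes after CCl4, against 0.326% of all genes, and 4 had an unadjusted p under 0.05 (Pdcd1, Cd160, Ctla4 and Cd200). DESeq2 called 0 and limma-voom called 1, Cd160. Pdcd1 was at 123, 199.999, 134, 204.5 and 362 CPM in CCl4 and at 75.6, 119 and 102 CPM in control libraries. It was the 1 gene of the 10 whose libraries did not overlap, where 6.66% of all genes were apart (log2 fold change 1.05, SE 0.30, adjusted p = 0.117). CCl4 library 5, the highest for Pdcd1, was also the highest for Havcr2 (25.8 CPM, the others 3.84 to 16.5), for the transcription factor Eomes (45.6 CPM, the others 12.1 to 21.8) for Tox2 (53.7 CPM) and for the sum of the NK markers (52.3 CPM, the others 15.7 to 31.8), a list that holds Eomes. Their part in its Pdcd1 value was not tested. Ctla4, at 462, 344, 328, 481 and 460 CPM in CCl4 and 261, 348 and 256 CPM in control libraries, gave 0.53 (SE 0.17, adjusted p = 0.163). The difference of the Pdcd1 response between liver Treg and liver Tconv was 0.58 (SE 0.40, adjusted p = 0.549).

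Cd160 spread widest within liver Tconv, at 29.0, 5.79, 2.26, 10.8 and 20.4 CPM in CCl4 and 24.7, 56.5 and 27.3 CPM in control libraries. Its log2 fold change was -1.41 (SE 0.45, adjusted p = 0.159; limma-voom gave -1.92, adjusted p = 0.00865). Innate-like T cells carry Zbtb16, the factor PLZF, and Klrb1c, the NK1.1 receptor. Zbtb16 was at 3.47, 2.94, 6.96, 3.19 and 2.36 CPM in CCl4 liver Tconv, against 15.1, 36.3 and 23.8 CPM in control liver Tconv. It was the 1 gene called of 7 NKT-like markers (log2 fold change -2.73, adjusted p = 0.0409). Klrb1c ranged from 1.17 to 3.00 CPM in CCl4 and from 6.25 to 10.1 CPM in control libraries, and control 2, with the most Cd160, had the most of both. The whole list, of which Slamf1 made up most, summed to 146.6 to 339 CPM in CCl4 and 181 to 298 CPM in control libraries. CCl4 library 1, however, had 29.0 CPM of Cd160 with 3.47 CPM of Zbtb16. The part of such cells in the Cd160 values was not tested. Exons of Cd160 overlap those of Pdzk1 on the opposite strand, and the strand setting of the quantification is not given in the sources used here. Pdzk1 was at 1.78 CPM or less.

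**Figure D3:**
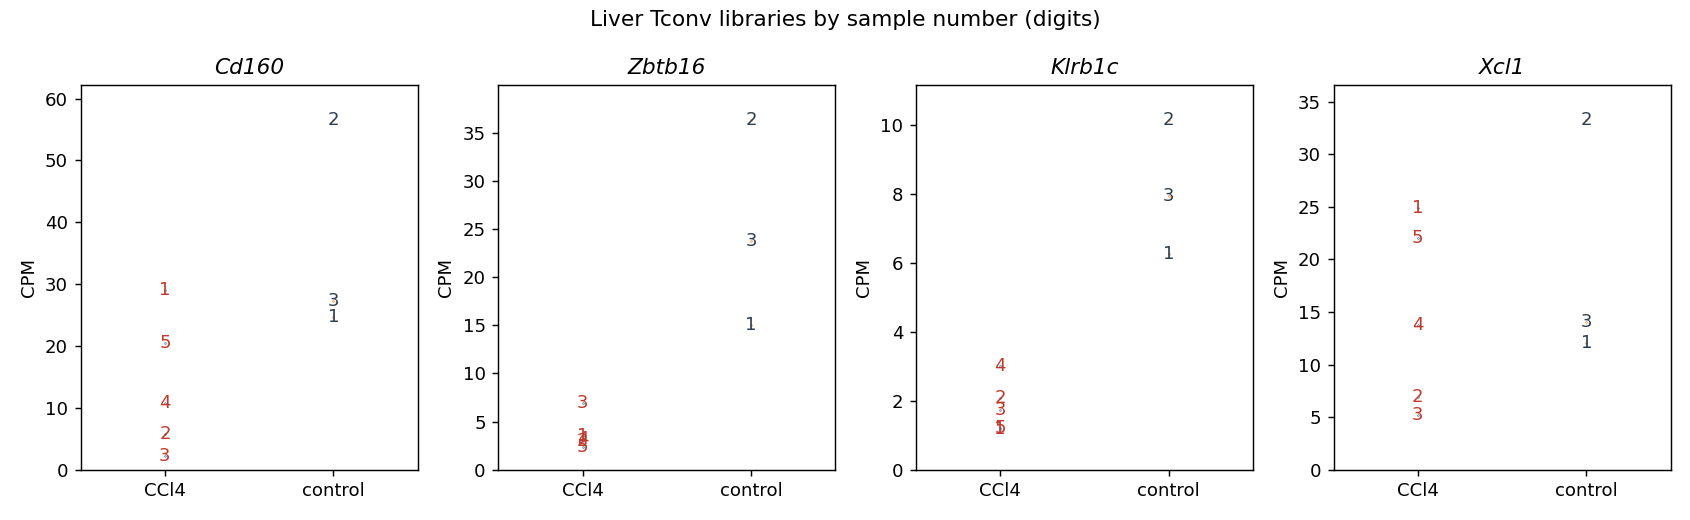
CPM of Cd160 and of Zbtb16, Klrb1c and Xcl1, which are markers of innate-like T cells, in each liver Tconv library; digits are sample numbers, CCl4 in red on the left and control in dark blue on the right. Control library 2 was the highest of the 8 for all 4 genes, and CCl4 library 1 was high in Cd160 (29.0 CPM) and Xcl1 (24.9 CPM) but not in Zbtb16 (3.47 CPM).

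In spleen Treg edgeR called 0 of the 10 genes after CCl4, against 1.18% of all genes. Here 3 had an unadjusted p under 0.05 (Tigit, Btla and Vsir), and DESeq2 and limma-voom called 0. Ctla4 (593, 572, 587, 594 and 614 CPM in CCl4, 549, 409 and 446 CPM in control), Tigit (76.9, 83.8, 103, 151 and 108 CPM in CCl4, 75.6, 67.4 and 69.0 CPM in control) and Vsir (448, 442, 434, 482 and 450 CPM in CCl4, 378, 414 and 398 CPM in control) were apart, 3 of 10 where 10.9% of all genes were. Their log2 fold changes were 0.34 (adjusted p = 0.376), 0.56 (adjusted p = 0.291) and 0.19 (adjusted p = 0.338). Myeloid markers moved in the same libraries: 3 of 11 rose (S100a8, C1qa and C1qb), and their sum was 69.8 to 127 CPM in CCl4 against 22.7 to 29.9 CPM in control spleen Treg. Without overlap, hepatocyte markers summed to 19.5 to 29.7 CPM in CCl4 and 6.63 to 10.1 CPM in control spleen Treg (1 of 8 called, Trf), NK markers to 8.70 to 14.7 and 4.46 to 7.45 CPM, and dendritic cell markers to 6.61 to 8.72 and 2.59 to 5.32 CPM, in CCl4 and control libraries. Their part in the values of the receptors was not tested.

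In spleen Tconv edgeR again called 0 genes, against 1.07% of all genes, with 5 at an unadjusted p under 0.05, and 0 of 10 were apart, where 8.80% of all genes were. Ctla4 came nearest, at 37.9, 31.2, 36.7, 38.6 and 26.3 CPM in CCl4 and 33.1, 15.9 and 16.9 CPM in control libraries (log2 fold change 0.63, SE 0.17, adjusted p = 0.0673). The low controls were 2 and 3, those with low Fos. Without them, which leaves 1 control, the log2 fold change was 0.04. It was 1.05 without control 1 (adjusted p = 1.02e-04), and DESeq2 with all libraries called Ctla4 (adjusted p = 0.00854). The myeloid markers summed to 21.9 to 45.8 CPM in CCl4 and 13.6 to 19.5 CPM in control spleen Tconv, with 0 of 11 called, and hepatocyte markers to 5.20 to 11.0 CPM in CCl4 and 2.81 to 4.76 CPM in control spleen Tconv, with 0 of 8 called. Their part was not tested. A missing call in any of these comparisons does not show that a gene's level was the same.

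The CCl4 libraries numbered 4 held the most Pdcd1, Lag3 and Tigit of their cell type in both spleen Treg and spleen Tconv; that both come from the same animal was not shown. Pdcd1 was at 120, 127, 142, 239 and 149.5 CPM in CCl4 and at 96.5, 117 and 123 CPM in control spleen Treg, and at 61.3, 50.7, 68.4, 123 and 48.9 CPM in CCl4 and 51.7, 47.1 and 55.7 CPM in control spleen Tconv. Lag3 was at 7.59, 6.24, 12.5, 33.6 and 10.03 CPM in CCl4 and 8.42, 7.12 and 5.46 CPM in control spleen Treg, and at 3.47, 1.45, 3.93, 12.6 and 3.51 CPM in CCl4 and 3.46, 1.51 and 3.02 CPM in control spleen Tconv. In these lists the fourth CCl4 value stands well above the others. Among the follicular helper markers, library 4 of spleen Tconv had 49.5 CPM of Il21 (8.05 to 14.96 CPM in the other CCl4 libraries, 7.61 to 8.85 CPM in controls), and library 4 of spleen Treg had 114 CPM of Tox2 (54.7 to 64.9 CPM in the other CCl4 libraries). The 7 follicular helper markers together summed to 552 to 672 CPM in CCl4 and 583 to 622 CPM in control spleen Treg, and to 520 to 659 CPM in CCl4 and 457 to 484 CPM in control spleen Tconv. When both libraries numbered 4 were dropped, which was decided once their values were known, Pdcd1 gave a log2 fold change of 0.26 in place of 0.47 in spleen Treg and 0.15 in place of 0.45 in spleen Tconv, and that of Lag3 was 0.38 in place of 1.00 and 0.20 in place of 0.88. With or without them 0 of the 10 genes were called.

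**Figure D4:**
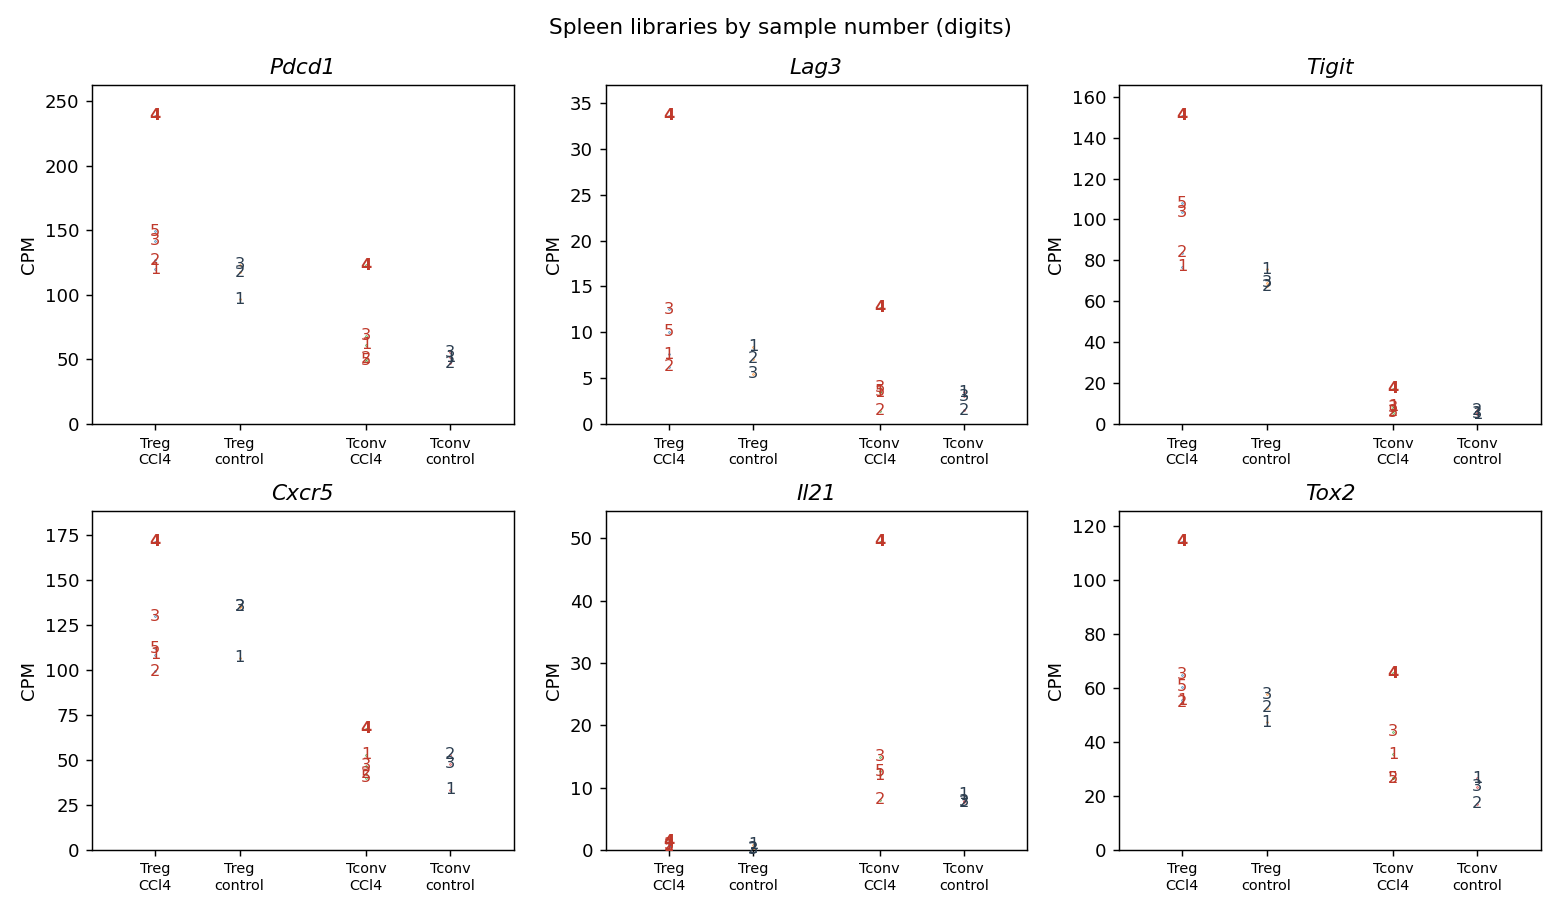
CPM of Pdcd1, Lag3 and Tigit (top) and of the follicular helper markers Cxcr5, Il21 and Tox2 (bottom) in each spleen library; digits are sample numbers, CCl4 in red and control in dark blue. The CCl4 library numbered 4 (bold) was the highest library of its cell type in every panel, with 239 CPM of Pdcd1 in Treg and 123 CPM in Tconv.

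Differences between the CCl4 responses were tested as interactions. Cd96 and Btla fell further in liver Treg than in liver Tconv, by -0.76 (SE 0.12, adjusted p = 2.44e-04) and -0.81 (SE 0.16, adjusted p = 0.00273) on the log2 scale. Liver Tconv itself had 238, 265, 249, 237 and 268 CPM of Cd96 in CCl4 and 248, 274 and 266 CPM in control libraries. The 2 genes called, both lower, stand against 3.65% of all genes, of which 1.76% were lower. Against spleen Treg the differences called were Cd96 (-0.71, SE 0.12, adjusted p = 6.15e-04), Btla (-0.68, SE 0.16, adjusted p = 0.0109) and Vsir (-0.56, SE 0.12, adjusted p = 0.00450), 3 genes lower where 5.49% of all genes were called and 3.46% were lower. These comparisons share the liver Treg libraries. The Cd96 difference from spleen Treg was -0.52 and not called without spleen controls 2 and 3, which leaves 1 spleen Treg control. That of Pdcd1, 1.16 (SE 0.40, adjusted p = 0.0890), was past the threshold in 6 of 28 other settings, and was 1.37 (adjusted p = 0.0371) without CCl4 library 4 of spleen Treg.

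Liver was then set against spleen within each cell type, averaged over both treatments, with 8 libraries on each side. In Treg, Havcr2, Ctla4, Pdcd1 and Tigit were higher in liver, and Cd160, Cd96, Cd200, Btla and Vsir lower. These 4 and 5 genes compare with 60.6% of all genes called, 30.1% higher and 30.5% lower. Ctla4 ranged from 2137 to 2715 CPM in liver Treg and from 409 to 614 CPM in spleen Treg, a 4.55-fold difference (log2 fold change 2.18, SE 0.12, adjusted p = 8.32e-15). Pdcd1 ranged from 226 to 930 CPM in liver and from 96.5 to 239 CPM in spleen Treg (1.74, SE 0.21, adjusted p = 2.93e-08). The largest differences were those of Havcr2, 30.7 to 58.5 CPM in liver and 2.13 to 4.42 CPM in spleen Treg (3.61, SE 0.48, adjusted p = 2.36e-07), and of Cd160, 0.474 to 4.17 CPM in liver and 12.4 to 20.8 CPM in spleen Treg (-3.40, SE 0.38, adjusted p = 8.03e-09). Cd96 was 2.70-fold lower in liver Treg (-1.43, SE 0.06, adjusted p = 2.99e-17). Tigit gave 1.06, Cd200 -0.80, Btla -0.65 and Vsir -0.64. For Btla, Vsir and Cd96 these averages cover larger differences after CCl4 than in controls. Btla averaged 39.9 CPM in liver and 79.1 CPM in spleen Treg after CCl4, and 76.1 and 94.2 CPM in controls. Vsir averaged 239 and 451 CPM after CCl4, and 311 and 397 CPM in controls. Cd96 averaged 75.9 and 262 CPM after CCl4, and 134.5 and 283 CPM in controls. Within each treatment 9 of the 10 genes were apart, where 29.0% of all genes were. Lag3 was not called (-0.28, SE 0.39, adjusted p = 0.547). Of 5 NK markers tested, 3 were lower in liver and 0 higher (sums of 0.319 to 4.55 CPM in liver and 4.46 to 14.7 CPM in spleen Treg). Myeloid markers had 6 of 11 lower and 1 higher, and B cell markers 3 of 7 lower and 0 higher. Of the 7 NKT-like markers 1 was lower and 2 higher. The part of such markers in the receptor values of Treg, Cd160 among them, was not tested.

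In Tconv, Havcr2, Ctla4, Tigit, Pdcd1 and Cd160 were higher in liver and Cd200 and Vsir lower, 5 and 2 genes where 55.0% of all genes were called (27.2% higher and 27.7% lower). Ctla4 ranged from 256 to 481 CPM in liver Tconv and from 15.9 to 38.6 CPM in spleen Tconv, 12.6-fold (log2 fold change 3.66, SE 0.13, adjusted p = 5.11e-19). Tigit ranged from 36.0 to 69.9 CPM in liver and from 4.66 to 17.3 CPM in spleen Tconv (2.71, SE 0.19, adjusted p = 1.06e-12). Havcr2 gave 4.10 (SE 0.55), Pdcd1 1.24 (SE 0.21), Cd200 -0.83 (SE 0.09) and Vsir -0.39 (SE 0.06). The call of Cd160 (1.21, SE 0.33, adjusted p = 0.00269) was lost without spleen controls 2 and 3, which leaves 1 spleen Tconv control. Its log2 fold change was then 1.14. With all libraries, control Cd160 was at 24.7 to 56.5 CPM in liver and 7.25 to 9.22 CPM in spleen Tconv. The CCl4 libraries overlapped, at 2.26 to 29.0 CPM in liver and 8.79 to 14.7 CPM in spleen Tconv. Cd96 (0.04) and Btla (-0.06) were not called, and neither was Lag3 (-0.47, adjusted p = 0.331). Here 5 of the 10 genes were apart within each treatment, against 25.7% of all genes. Hepatocyte markers, a trace of the tissue, followed the same axis: all 8 were called higher in liver in both cell types, with sums of 132 to 480 CPM in liver Treg against 6.63 to 29.7 CPM in spleen Treg, and 146 to 508 CPM in liver Tconv against 2.81 to 11.0 CPM in spleen Tconv. In Tconv, 6 of 7 NKT-like markers were also called higher in liver, with sums of 146.6 to 339 CPM in liver and 51.8 to 71.2 CPM in spleen Tconv, and 2 of 5 NK markers tested (sums of 15.7 to 52.3 CPM in liver and 14.2 to 26.6 CPM in spleen Tconv). Of the 7 defining CD4 T cell markers, 6 were lower in liver in Treg and 0 higher, beside 30.5% of all genes lower. In Tconv 6 of them were lower and 0 higher, beside 27.7% of all genes lower. The part of these markers in the receptor values, Cd160 among them, was not tested.

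Treg were set against Tconv of the same tissue in the same way. In liver all 10 genes were called, 6 higher in Treg (Ctla4, Havcr2, Tigit, Pdcd1, Lag3 and Cd200) and 4 lower (Cd160, Cd96, Btla and Vsir), against 51.8% of all genes, 24.7% higher and 27.1% lower. Ctla4 was 6.91-fold higher in liver Treg (2.79 on the log2 scale, SE 0.13, adjusted p = 3.73e-17) and Tigit 3.89-fold (1.96, SE 0.18, adjusted p = 1.23e-10). Cd160 ranged from 0.474 to 4.17 CPM in liver Treg and from 2.26 to 56.5 CPM in liver Tconv (-3.85, SE 0.38, adjusted p = 1.13e-09). Cd96 gave -1.35 (SE 0.06), Btla -0.75 (SE 0.08), Vsir -0.41 (SE 0.06), Havcr2 2.50 (SE 0.45), Pdcd1 1.64 (SE 0.21), Lag3 1.63 (SE 0.41) and Cd200 0.94 (SE 0.09). Within each treatment 8 of the 10 were apart, where 23.5% of all genes were. Innate-like markers were lower in liver Treg too: 5 of 7 NKT-like markers were called lower and 1 higher, and 3 of 5 NK markers tested were lower (sums of 0.319 to 4.55 CPM in Treg and 15.7 to 52.3 CPM in Tconv). The NKT-like list summed to 171 to 230 CPM in liver Treg, with Klra1 at 0, and to 146.6 to 339 CPM in liver Tconv. Of 8 hepatocyte markers 4 were lower, and of 7 B cell markers 2 were higher and 1 lower. Of the 7 defining CD4 T cell markers, 6 were lower in liver Treg and 0 higher. They summed to 4850 to 5575 CPM in liver Treg and to 6278 to 7437 CPM in liver Tconv. The part of these lists in the receptor values was not tested.

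In spleen the same 6 genes were higher in Treg, and Vsir alone was called lower. These 6 and 1 genes stand against 39.7% of all genes, 19.4% higher and 20.2% lower. Ctla4 ranged from 409 to 614 CPM in spleen Treg and from 15.9 to 38.6 CPM in spleen Tconv, 19.2-fold (log2 fold change 4.26, SE 0.14, adjusted p = 2.94e-20). Tigit was 12.2-fold higher (3.61, SE 0.20, adjusted p = 3.04e-15), and Havcr2 gave 2.98 (SE 0.54), Lag3 1.44 (SE 0.40), Pdcd1 1.14 (SE 0.20) and Cd200 0.92 (SE 0.09). The call of Vsir (-0.17, SE 0.06, adjusted p = 0.0249) held in 19 of 28 other settings. That of Lag3 was lost without spleen controls 2 and 3, which leaves 1 control per spleen population. The log2 fold change of Lag3 was then 1.39. Cd96 (0.12, adjusted p = 0.125), Btla (-0.16, adjusted p = 0.112) and Cd160 (0.76, adjusted p = 0.0654) were not called, and 4 of the 10 were apart, against 19.6% of all genes. In spleen Treg 4 of 7 NKT-like markers were called lower and 1 higher (sums of 112 to 149.8 CPM in Treg and 51.8 to 71.2 CPM in Tconv), 4 of 7 B cell markers higher (2303 to 3128 CPM in Treg and 790 to 999 CPM in Tconv) and 3 of 11 myeloid markers higher (22.7 to 127 CPM in Treg and 13.6 to 45.8 CPM in Tconv). Of the 7 defining CD4 T cell markers, 3 were lower in spleen Treg and 0 higher. Their part was not tested.

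**Figure D5:**
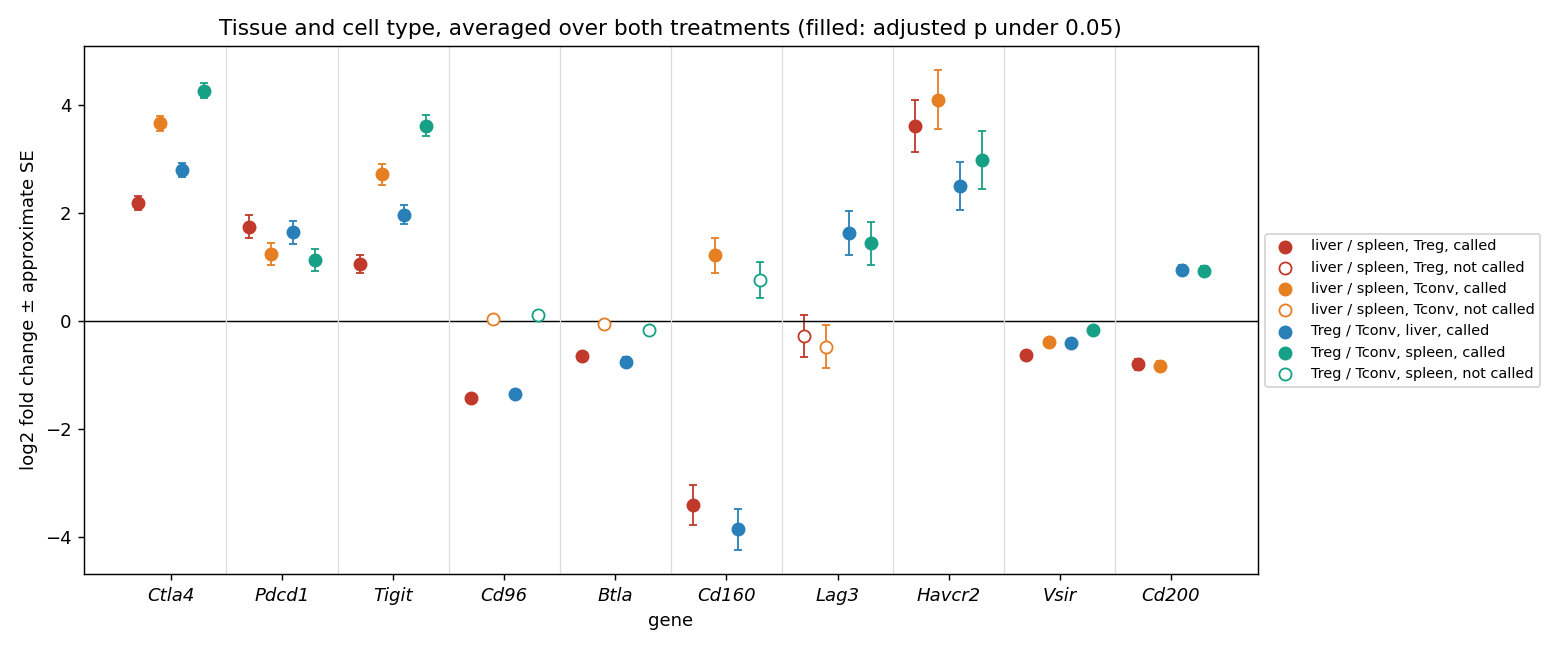
Log2 fold change of each gene between tissues (red, Treg; orange, Tconv) and between cell types (blue, liver; green, spleen), averaged over both treatments, with approximate standard errors; filled points had an adjusted p under 0.05. Cd96, Btla, Cd160 and Vsir were lower in liver Treg than in spleen Treg and liver Tconv, whereas Ctla4, Pdcd1, Tigit and Havcr2 were higher in all 4 comparisons.

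The difference between liver and spleen was itself different in Treg and Tconv for 6 genes, all lower in the Treg than in the Tconv contrast, where 19.3% of all genes were called and 12.3% were lower. For Ctla4 (-1.47, SE 0.17, adjusted p = 2.11e-07) and Tigit (-1.65, SE 0.25, adjusted p = 1.44e-05) this is a smaller excess of liver over spleen in Treg. For Cd160 the sign of the contrast changed (-4.62, SE 0.50, adjusted p = 8.97e-08): it was lower in liver among Treg and higher in liver among Tconv. That Tconv excess is an average over both treatments. Control Cd160 averaged 36.2 CPM in liver and 8.44 CPM in spleen Tconv. After CCl4 it averaged 13.7 and 10.9 CPM, and those libraries overlapped. Cd96 (-1.47, SE 0.09, adjusted p = 8.16e-13) and Btla (-0.58, SE 0.12, adjusted p = 4.67e-04) were lower in liver among Treg and not called among Tconv. The difference of Vsir (-0.24, SE 0.09, adjusted p = 0.0449) was past the threshold in 17 of 43 other settings. Those of Pdcd1 (0.50, adjusted p = 0.241) and Havcr2 (-0.48, adjusted p = 0.696) were not called.

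Genes around these receptors were followed in 4 lists. Among 16 ligands and counter-receptors, CCl4 liver Treg had 2 called higher and 2 lower, beside 7.58% and 7.34% of all genes. Cd200r1, the receptor for CD200, rose to 193 ± 5.07 CPM in CCl4 liver Treg, against 72.3 ± 4.20 CPM in control liver Treg (log2 fold change 1.42, adjusted p = 4.42e-10), and its response was larger than in liver Tconv by 1.03 (adjusted p = 8.15e-05). Pdcd1lg2, the gene of PD-L2, rose (0.68, adjusted p = 0.0113). Pvr, the gene of CD155, the shared ligand of TIGIT and CD96, fell (-0.64, adjusted p = 0.00341), as did Selplg, a partner of VISTA (-0.33, adjusted p = 0.0167). Of 5 costimulatory genes, the receptors Cd28, Icos, Cd226 and Cd2 and the HVEM ligand Tnfsf14 (LIGHT), 0 were called in any of the 4 CCl4 comparisons in edgeR's test.

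Of 16 transcription factors tied to these receptors, 4 rose and 1 fell in CCl4 liver Treg, beside 7.58% and 7.34% of all genes. Tox2, a relative of the exhaustion factor TOX, rose to 134 ± 32.9 CPM in CCl4 libraries, against 52.4 ± 3.32 CPM in control libraries (1.36, adjusted p = 0.00267). Maf (0.65, adjusted p = 0.00434), which drives IL-10 and several coinhibitory receptors, and Prdm1 (0.69, adjusted p = 0.0224), the gene of Blimp-1, rose, as did Nr4a2. Tcf7, the gene of TCF-1, stood at 77.0 CPM in CCl4 against 235 CPM in control libraries (-1.61, adjusted p = 1.74e-13). Of 14 phosphatases, adaptors and trafficking genes 1 rose and 3 fell, beside those same shares, among them Trat1, which carries CTLA-4 to the cell surface (48.4 CPM in CCl4 and 138 CPM in control liver Treg, -1.51, adjusted p = 1.50e-08), and the adaptor gene Sh2d1a (-0.88, adjusted p = 8.95e-07). In the other CCl4 comparisons these lists held 3 calls, which were Nr4a2 and Nfil3, higher in spleen Treg, and Foxp3, lower in liver Tconv at 0.976 CPM in CCl4 against 2.26 CPM in control libraries. Of the spleen Treg controls, 2 and 3 were those with low Fos (22.6 to 842 CPM over the controls, 797 to 1115 CPM in CCl4). Neither Nr4a2 nor Nfil3 was called there without those controls, in a fit with 1 spleen Treg control left.

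Between tissues far more of all genes were called than after CCl4, and more of these lists. In Treg, 10 of the 16 ligands were higher in liver and 2 lower, beside 30.1% and 30.5% of all genes, with Cd274, the gene of PD-L1, at 184 ± 24.7 CPM in liver and 74.9 ± 8.89 CPM in spleen Treg (log2 fold change 1.37, adjusted p = 3.82e-14). Of the transcription factors 11 were higher and 3 lower, Nr4a2 by 4.68 and Tcf7 by -1.90. The spleen side of these contrasts includes controls 2 and 3, those with low Fos. In Tconv 10 ligands were higher and 1 lower, and 10 factors higher and 2 lower, beside 27.2% and 27.7% of all genes. Of the 5 costimulatory genes 2 were higher and 2 lower in liver in Treg, and 4 higher and 0 lower in Tconv, beside those same shares. Icos and Cd28 were higher in liver in Treg (1.73 and 1.03) and in Tconv (2.96 and 1.34). All 5 costimulatory genes had a lower liver contrast in Treg than in Tconv, as 12.3% of all genes did, with Icos at -1.23 (adjusted p = 2.43e-10) and Cd226 at -1.37 (adjusted p = 1.16e-05). Of the 14 phosphatases, adaptors and trafficking genes 3 were higher and 6 lower in liver in Treg, and 2 higher and 3 lower in Tconv. Ptpn6, the gene of the phosphatase SHP-1, was lower in liver in Treg (-1.22) and in Tconv (-1.20). Between cell types in liver, Treg had 5 ligands higher and 4 lower, beside 24.7% and 27.1% of all genes, with Cd80 at 26.3 ± 4.58 CPM in Treg and 1.99 ± 1.04 CPM in Tconv. Of the costimulatory genes 2 were higher and 3 lower in liver Treg, the latter with Cd226, the activating rival of TIGIT (-1.57). In spleen Treg, 7 ligands were higher and 2 lower, beside 19.4% and 20.2% of all genes, with Pdcd1lg2 at 2.97 and Cd86 at 2.34.

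Genes with the most similar profiles were ranked by Pearson r of log2 CPM over the 32 libraries, among 9253 genes. The libraries share 4 populations, so a high r largely describes levels per population. Ctla4 was nearest to Hopx (0.988), Ahr (0.980) and Tnfrsf1b (0.976), and Tigit to Tnfrsf1b (0.984) and Tnfrsf4 (0.981). Pdcd1 was nearest to Jdp2 (0.958), Lig1 (0.949) and Ehd1 (0.945), and Havcr2 to Samd11 (0.939), Tpx2 (0.931) and Rab8b (0.930). Btla was nearest to Ssbp2 (0.944) and Aff3 (0.926), Cd96 to Ms4a6b (0.956) and Evl (0.955), Vsir to Stat6 (0.952) and Rnf114 (0.947), and Cd200 to Izumo1r (0.950) and Tns1 (0.944). For Cd160 the nearest were Lax1 (0.889) and Cd96 (0.882), and Lag3 had the weakest neighbours, with Sccpdh (0.865) and Ptms (0.863). Among the 10 genes themselves r was 0.976 for Ctla4 and Tigit, 0.913 for Ctla4 and Havcr2, 0.862 for Btla and Cd96, -0.825 for Pdcd1 and Btla and -0.831 for Pdcd1 and Vsir.

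The gene sums rest on different transcripts. Pdcd1, Tigit and Cd96 had 1 transcript each. The coding transcript Btla-202 carried 58.8% to 81.0% of the TPM of Btla. Vsir was split between Vsir-201 (38.4% to 47.8%) and Vsir-202 (36.1% to 46.7%). Of the TPM of Cd200, the coding transcript Cd200-202 carried 31.5% to 50.6%, and Cd200-210, a non-coding transcript of 281 bases, was assigned 15.7% to 49.0%, so Cd200 levels per length are less certain than those of the other genes. In Lag3 a transcript of 426 bases, Lag3-202, took up to 55.3%.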

How the data were processed

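Sorted Treg and Tconv of liver and spleen were sequenced with Clontech Ultra Low v4 and NexteraXT chemistry, per the labels' protocols. The authors ran bcl2fastq 2.19, kallisto 0.44.0 and the build GRCm38.p6, per the submitters' processing notes. The deposited tables hold kallisto's estimated counts and TPM for 118489 transcripts in each of 32 libraries, per the file headers. Of these, 116816 (98.6%) matched GENCODE M21 by transcript ID, and the others held 0.662% to 0.799% of the counts. Both measures were summed per gene, and the estimated counts were rounded to whole numbers.

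Counts of 17174 genes that passed filterByExpr were fitted in edgeR 4.0.16 (R 4.3.3) with TMM scaling, 1 fit of 8 groups and the quasi-likelihood test, with Benjamini-Hochberg adjustment over all genes. Standard errors are approximate, the log2 fold change over the square root of F. CPM are scaled by TMM. The test was checked only on counts simulated from its own fitted model, for CCl4 in liver Treg, which cannot show how well that model fits these libraries. The members and lists were chosen with earlier results of these data known. In each list and comparison the 4 genes with the smallest adjusted p could be named, and the 3 genes most like each member among those averaging 5 CPM or more. Other genes named were chosen after their values were seen. Alternatives were other tools (DESeq2 1.42.0, limma 3.58.1 on TPM with pseudocounts of 1 and 0.1), scaling and filters, fits of the groups compared alone, blocks by sample number, and leaving out libraries.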

Additional observations from a re-analysis of the deposited data

Results flagged for a closer look

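In 6 of the 40 combinations of a gene and a CCl4 group of 5 libraries, 1 library was set apart from the other 4 by a gap beyond Dixon's critical value, where chance gives about 1 in 20. The CCl4 libraries numbered 4 of spleen Treg and spleen Tconv accounted for 5 of them. That of spleen Treg had 238.8 CPM of Pdcd1 (the others 120 to 149.5) and 33.59 CPM of Lag3 (6.24 to 12.5). That of spleen Tconv had 122.9 CPM of Pdcd1 (48.9 to 68.4), 12.65 CPM of Lag3 (1.45 to 3.93) and 17.34 CPM of Tigit (5.41 to 8.68). The last was Havcr2 at 2.131 CPM in CCl4 library 2 of spleen Treg (3.75 to 4.27), a low count.

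Differences between effects that passed their own test follow on the log2 scale, all negative. For the CCl4 response of liver Treg minus that of liver Tconv they were -0.762 for Cd96 and -0.8126 for Btla. For liver Treg minus spleen Treg they were -0.5642 for Vsir, -0.7123 for Cd96 and -0.6795 for Btla. For the liver and spleen difference of Treg minus that of Tconv they were -0.2429 for Vsir, -1.467 for Cd96, -1.470 for Ctla4, -4.616 for Cd160, -0.5844 for Btla and -1.652 for Tigit.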

How the results depend on the processing

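Of 1250 values of a gene under settings other than leaving out a single library, 1186 kept their direction and side of the threshold, 23 passed it, 14 lost it and 27 changed sign. Of 1600 that left out a library, the numbers were 1538, 5, 24 and 33. The causes were not tested. The CCl4 count of 0 became 1 in spleen Tconv (Ctla4) with a mean of at least 5 CPM, in all 3 limma fits of TPM and in DESeq2, and ran from 0 to 2 over single libraries left out. It became 1 in liver Tconv (Cd160) with limma-voom. Without spleen controls 2 and 3, which leaves 1 control in each spleen population, fewer genes were called in the spleen comparisons. Whether that reflects those libraries or the smaller number of controls cannot be told apart. With all libraries, all-gene calls after CCl4 were 202 in spleen Treg and 183 in spleen Tconv. Without both CCl4 libraries numbered 4 they were 88 and 151. Without the filter they were 2167 in liver Treg (2561 with it), 24 in liver Tconv (56), 147 in spleen Treg and 101 in spleen Tconv.

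The labels do not say that the sample numbers pair libraries, and 5 of 48 same-numbered pairs of the same treatment correlated above 0.1. Their mean r was 0.0441, against -0.0136 for different numbers. Of 96 best matches 68 were to the same number, with all 3 for 12 of 32 libraries. This points to pairing in the data, which the design does not state, and the main fit treated all libraries as unpaired. With the number as a replicate block, 4 members were called in liver Treg and 0 in the other 3 populations, and all-gene calls were 2280 and 32 in liver Treg and Tconv. Havcr2 in spleen Treg became -0.1541. The difference of the Pdcd1 response between liver Treg and spleen Treg was then past the threshold (1.206, adjusted p = 0.0389), as with a block by treatment and sample number (1.2081, adjusted p = 0.0448), under which Cd160 in Treg against Tconv of the spleen was too (0.7821, adjusted p = 0.0387).

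Sign changes of CCl4 effects were Cd160 in spleen Treg (-0.0753), Havcr2 in spleen Tconv (-0.1472) and Btla in spleen Tconv (0.0674) without spleen controls 2 and 3, Havcr2 in spleen Tconv without both libraries numbered 4 (-0.5484) and with limma-voom (-0.9681), and Vsir in liver Tconv with limma on TPM (0.0064). For liver against spleen Tconv they were Btla with at least 5 CPM (0.0623) and without controls 2 and 3 (0.1002), and Cd96 without those controls (-0.0303) and with limma on TPM (-0.0259 and -0.0261). For liver Treg minus liver Tconv they were Tigit with at least 5 CPM (-0.0089) and Cd160 with DESeq2 (-0.0130). For liver Treg minus spleen Treg they were, without controls 2 and 3, Havcr2 (-0.1298), Cd200 (0.0001) and Ctla4 (0.0593), and with limma on TPM Cd200 (0.0868 and 0.0873). For the tissue difference of Treg minus Tconv they were Havcr2 (0.0974) and Cd200 (-0.0048) without those controls, and Havcr2 with limma on TPM (1.2824, adjusted p = 0.0108).

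Over single libraries left out, ranges crossed 0 for CCl4 in Cd200 (liver Treg, -0.2396 to 0.0131; spleen Treg, -0.0697 to 0.0055), Vsir (liver Tconv, -0.1733 to 0.0277) and Havcr2 (spleen Treg, -0.1192 to 0.2321; spleen Tconv, -0.5482 to 1.4203), and for Lag3 between liver and spleen Treg (-0.3759 to 0.0288). For liver Treg minus liver Tconv they were Lag3 (-0.7669 to 0.0014), Cd160 (-0.4348 to 0.6177) and Tigit (-0.0818 to 0.1520). For liver Treg minus spleen Treg they were Cd200 (-0.2039 to 0.0484), Lag3 (-0.5431 to 0.2656) and Tigit (-0.2524 to 0.0095). For the tissue difference they were Cd200 (-0.0416 to 0.0862) and Lag3 (-0.1526 to 0.5010). Depth limits Havcr2 in spleen Tconv and Cd160 in liver Treg, which lie near the floor or at a few CPM.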
